A study of Mus musculus with 4 samples.

Results

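A group of 40 genes was bright in 3 of 4 arrays labelled as mouse heart and dim in the remaining one, Control replicate 1, and this group is described here gene by gene. The genes were chosen by their measured values: an intensity of at least 500 in Rhau KO replicates 1 and 2 and in Control replicate 2, and of at most 100 in Control replicate 1. Sarcomere myosins, troponins, natriuretic peptides, potassium and sodium channel genes, mitochondrial carriers, cytochrome oxidase genes and a short list of cardiac regulators were left out by name, which removed 20 genes. Except for the short list, the start of the symbol decided, so Mylk3 and Tnni3k were removed too. The 40 that stayed were 40 of 18193 genes measured, each gene represented by its brightest probe set.

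By the labels, both groups were C57BL/6J adult mice with a floxed Rhau gene (Rhau F/F), and by the methods both were given tamoxifen. The labels give heart RNA of the genotype CAAG-ERT2-Cre;Rhau F/F for the Rhau KO arrays and of Rhau F/F for the Control arrays, with 2 arrays in each group, and the values that go against these labels are given below. By the methods of the study, tamoxifen was given in 5 doses at 2 months of age, and hearts were collected 2 months later. The CAAG promoter that drives the inducible Cre is not restricted to heart muscle cells, so a deletion would reach other cells of the heart too. Intensities are linear values in arbitrary units, computed by the authors with the MAS5 algorithm for Affymetrix arrays. They can be compared between arrays for 1 probe set but not between genes. No source states that the replicates were different mice, and p-values therefore cover only the scatter of these arrays, whose number limits the precision.

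The array values went against the labels in 2 respects. Dhx36 encodes RHAU, the helicase to be deleted, and all 3 of its probe sets averaged more in the Rhau KO arrays, for example 627 and 537 in the Rhau KO arrays against 156 in Control 1 and 172 in Control 2. "KO arrays" therefore means only the arrays that carry that label. Control 1 stood apart from the other arrays, with a Pearson correlation across probe sets of 0.872 to 0.873 with them, against 0.923 to 0.926 among them. Of 12 markers of heart muscle cells, 9 were over 2-fold dimmer in Control 1 than in each other array, and their summed intensity was 463423 and 476923 in the KO arrays, against 125396 in Control 1 and 483208 in Control 2. The troponin gene Tnni3 read 39371 and 37838 in the KO arrays, against 10.3 in Control 1 and 38930 in Control 2. Of 17 markers of fast skeletal muscle, 15 were over 2-fold brighter in Control 1 than in each other array, with a sum of 51501 and 50190 in the KO arrays, against 629447 in Control 1 and 65461 in Control 2. Endothelial markers were likewise over 2-fold dimmer in Control 1 than in each other array in 4 of 5 cases, and their sum was 9994 and 9320 in the KO arrays, against 3518 in Control 1 and 9461 in Control 2. Control 2 had its own departure: the heat shock gene Hspa1a read 1141 and 582 in the KO arrays, against 631 in Control 1 and 18079 in Control 2. The part of these differences in the values below was not tested, and each comparison is therefore given with and without Control 1.

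Heart muscle cells are coupled end to end at the intercalated disc, where desmosomes and adherens junctions carry force and gap junctions carry current. Each beat starts with calcium entry through the L-type channel, and the cells also secrete peptides that act on the kidney and vessels. Skeletal muscle fibres are single syncytial cells without such discs, and they use their own genes for several of the same tasks. In bulk RNA, fewer cells of a type and less RNA per cell cannot be told apart.

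Over the 40 genes, the median intensity was 1255 in Rhau KO 1 and 1355 in Rhau KO 2, against 49.1 in Control 1 and 1365 in Control 2. In Control 1 the values ran from 2.50 for Corin to 99.5 for Meis2, and 54.0% of all probe sets read under 100 on that array. The genes stood between the percentiles 3.05 and 53.9 of the probe sets of Control 1, with a median at 39.5. Thus most lay in the dim range of Control 1 rather than at its bottom, and detection calls were not used here. Of the 40, 5 read at most 10 in Control 1 and 20 at most 50. The lowest of the other 3 arrays was 6.69-fold (Rab20) to 2265-fold (Corin) above Control 1, with a median of 35.7-fold, which describes how the genes were chosen and was not tested.

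**Figure D1:**
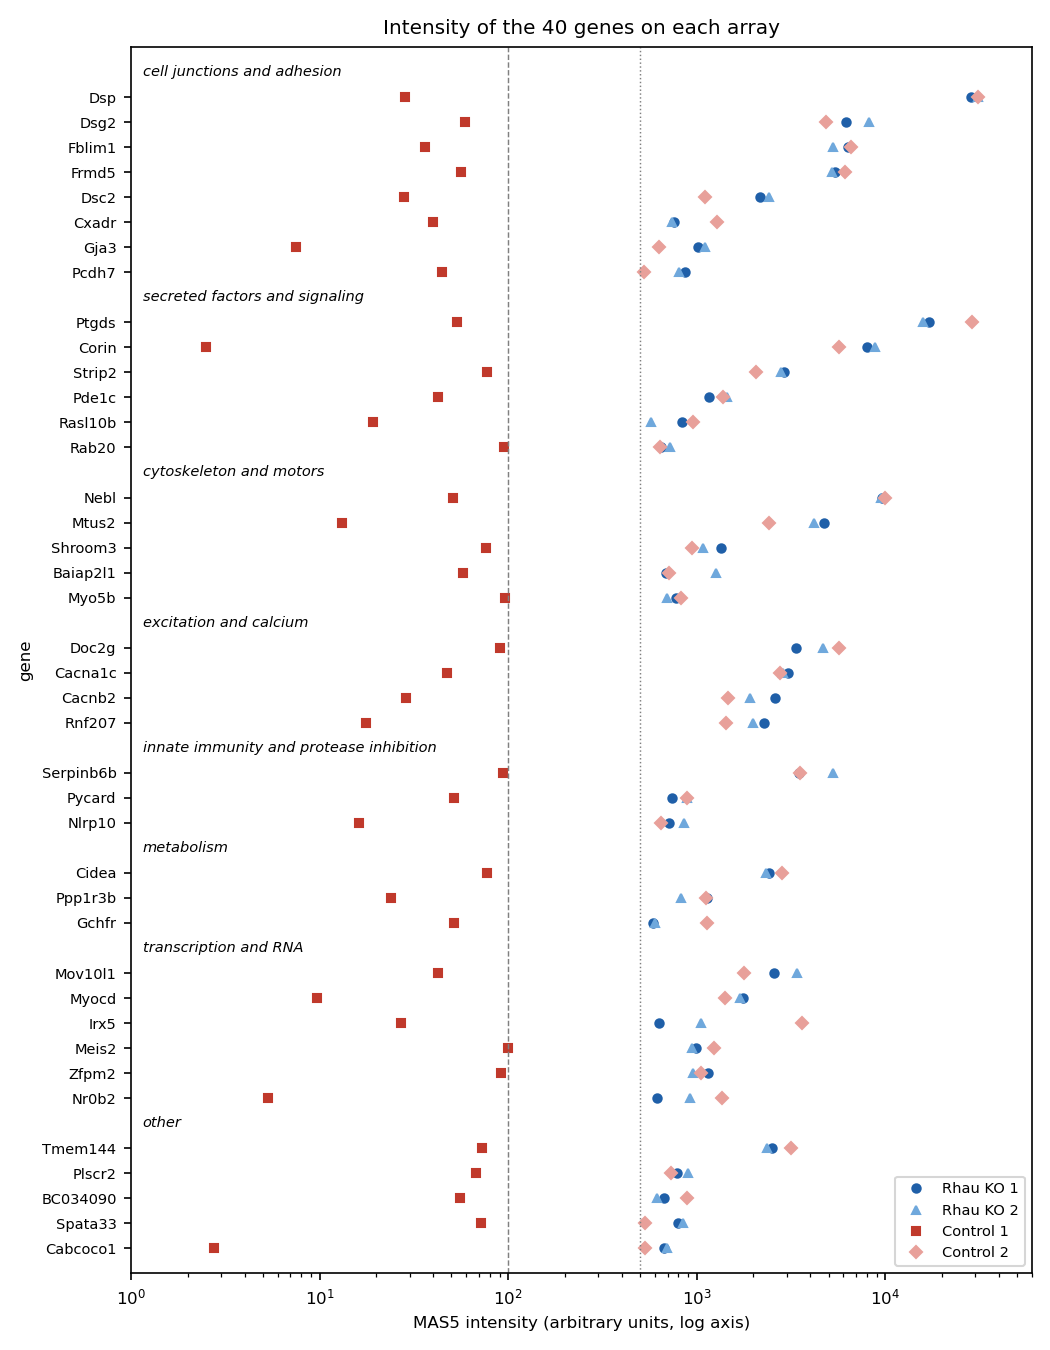
Intensity of each of the 40 genes on the 4 arrays, on a log axis in arbitrary MAS5 units, grouped by role. Blue points are the Rhau KO-labelled arrays, red squares Control 1 and pink diamonds Control 2; the dashed and dotted lines mark 100 and 500, the values that chose the genes. The 3 other arrays lie within 1.5-fold of each other for 21 genes and spread over more than 2-fold for 3.

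The thresholds did not fall in a gap. Just inside the limit of 100 in Control 1 stood Meis2 at 99.5, Myo5b at 96.3 and Rab20 at 95.5, and just outside it Ccdc141 at 102, Fam174b at 104 and Colec11 at 108. At the other limit, the lowest of the 3 bright arrays was 524 for Pcdh7, 529 for Cabcoco1 and 534 for Spata33, and outside it 494 for Plscr1, 492 for Abcc8 and 481 for Adcy5. The same pair of limits applied to another array in place of Control 1 gave 1 gene for Rhau KO 1 (Car3), 0 for Rhau KO 2 and 0 for Control 2. Of the 5828 genes bright in the 3 arrays whose names were not left out, 0.686% were dim in Control 1.

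**Figure D2:**
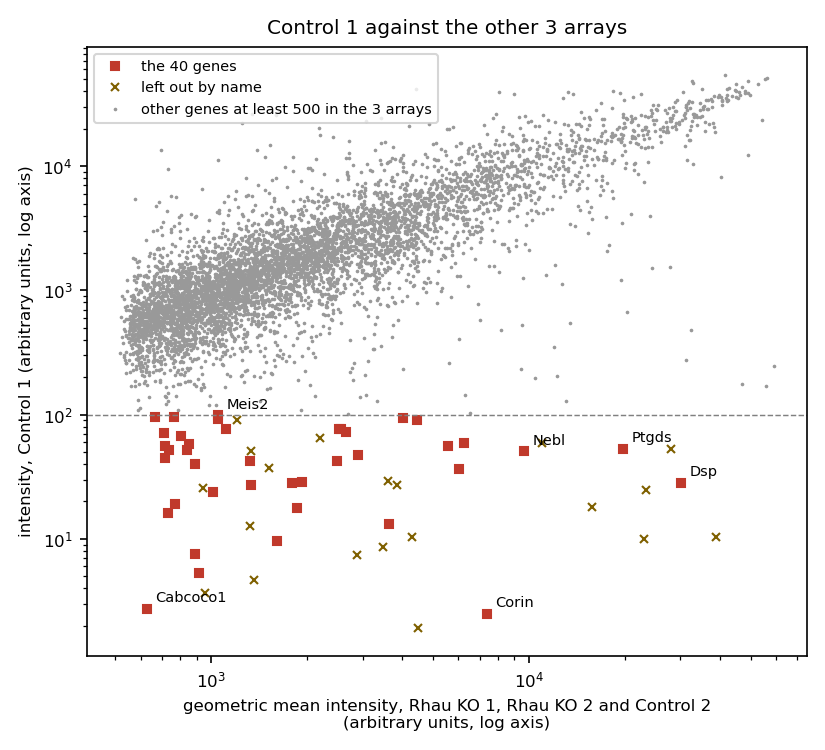
Intensity in Control 1 against the geometric mean of Rhau KO 1, Rhau KO 2 and Control 2, both on log axes in arbitrary units, for 5912 genes of at least 500 in those 3 arrays. The 40 genes (red squares) and the 20 left out by name (crosses) lie under the dashed line at 100, and the points above it continue down to that line without a gap.

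Of the 40 genes, 8 were placed under cell junctions and adhesion. Role groups were drawn after the values were seen and after genes had been left out by name, so their sizes are not compared. Desmosomes anchor the intermediate filaments of neighbouring cells, and 3 of their components were in the group. Dsp, the plaque protein desmoplakin, read 28460 and 30968 in the KO arrays, against 28.4 in Control 1 and 31209 in Control 2. Dsg2, the cadherin desmoglein, read 6160 and 8221 in the KO arrays, against 58.9 in Control 1 and 4826 in Control 2. Dsc2, its partner desmocollin, read 2167 and 2424 in the KO arrays, against 27.9 in Control 1 and 1107 in Control 2. For both desmosomal cadherins Control 2 lay below both KO arrays, while for Dsp it lay just above them.

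The other 5 genes of this kind belong to gap junctions, receptors and adhesion sites. Gja3, a connexin best known from the lens, read 1015 and 1105 in the KO arrays, against 7.52 in Control 1 and 631 in Control 2. Cxadr, the coxsackievirus and adenovirus receptor of the intercalated disc, read 753 and 737 in the KO arrays, against 40.1 in Control 1 and 1279 in Control 2. Fblim1, a filamin-binding adaptor, read 6379 and 5252 in the KO arrays, against 36.4 in Control 1 and 6544 in Control 2. Among these genes Cxadr was the one with Control 2 well above the KO arrays. Frmd5, a FERM domain protein, read 5383 and 5236 in the KO arrays, against 56.0 in Control 1 and 6126 in Control 2. Pcdh7, a protocadherin, read 867 and 801 in the KO arrays, against 44.5 in Control 1 and 524 in Control 2.

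A wider list of 27 intercalated disc and adhesion genes was also read. Of its 26 measured genes, 22 read at least 500 in the 3 arrays, and 5 of these were among the 40 genes, which were chosen for being dim in Control 1. Of the other 17, 9 were over 2-fold dimmer in Control 1 than the mean of the other arrays (52.9%), 8 were within 2-fold and 0 were over 2-fold brighter. Over all 5872 genes of that brightness outside the 40, 14.8% were over 2-fold dimmer in Control 1, 6.59% over 2-fold brighter and 78.6% within 2-fold. The median log2 difference, Control 1 minus the other 3 arrays, was -1.02 over the 17 genes and -0.13 over the 5872. Counts on the wider lists below that compare Control 1 with the other arrays likewise leave out the 40 genes and are read beside these shares. Pkp2, the desmosomal plaque protein plakophilin, read 10556 and 11834 in the KO arrays, against 350 in Control 1 and 13948 in Control 2. Cdh2, N-cadherin of the adherens junction, read 13839 and 14475 in the KO arrays, against 128 in Control 1 and 11294 in Control 2. Gja1, the main connexin of working heart muscle, read 25579 and 22681 in the KO arrays, against 1502 in Control 1 and 24991 in Control 2. These 3 were dim in Control 1 but above its limit of 100. Jup, plakoglobin, which also serves adherens junctions in many tissues, read 906 and 691 in the KO arrays, against 440 in Control 1 and 719 in Control 2, which left Control 1 within 2-fold of the mean of the others.

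**Figure D3:**
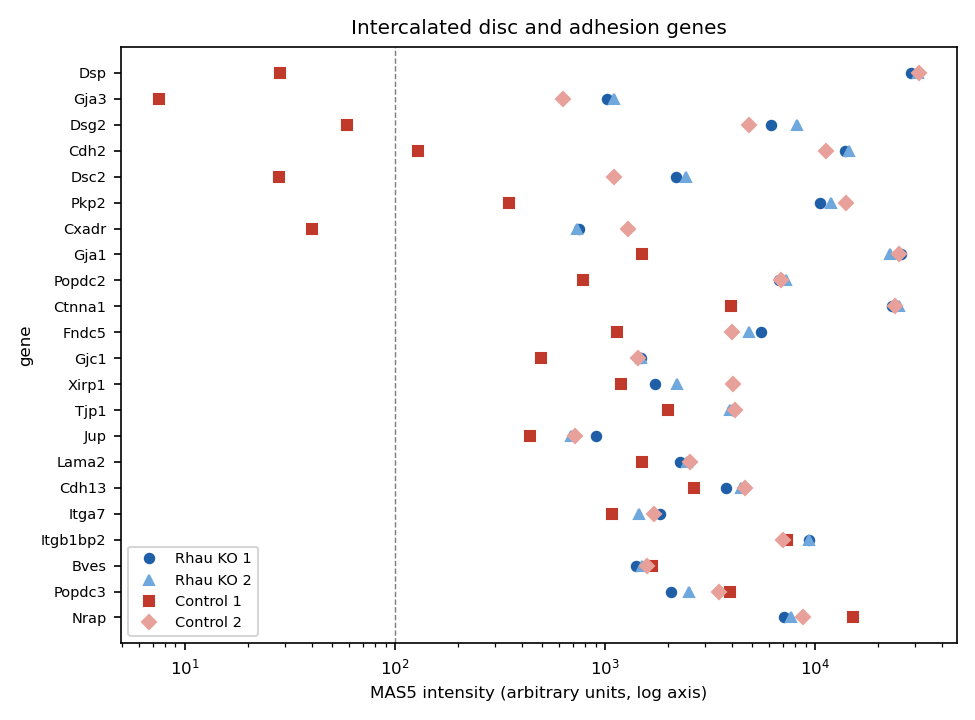
Intensity of the 22 intercalated disc and adhesion genes that read at least 500 in Rhau KO 1, Rhau KO 2 and Control 2, on a log axis in arbitrary units, ordered by how far Control 1 (red squares) lies below the others. Dsp, Gja3, Dsg2, Dsc2 and Cxadr fall under the dashed line at 100, and Nrap at the bottom is brighter in Control 1 than in the other arrays.

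The role group of excitation and calcium had 4 genes. Cacna1c, the pore subunit of the L-type calcium channel of the heart, read 3047 and 2884 in the KO arrays, against 47.1 in Control 1 and 2750 in Control 2. Cacnb2, its beta subunit, read 2585 and 1917 in the KO arrays, against 28.6 in Control 1 and 1464 in Control 2. The skeletal muscle counterparts of both subunits had the opposite pattern. Cacna1s, the pore subunit of skeletal muscle, read 112 and 109 in the KO arrays, against 5495 in Control 1 and 165 in Control 2. Cacnb1, the skeletal beta subunit, read 129 and 100 in the KO arrays, against 3245 in Control 1 and 228 in Control 2. Rnf207, a RING finger protein tied to cardiac repolarization, read 2279 and 1993 in the KO arrays, against 17.6 in Control 1 and 1432 in Control 2. Doc2g, a protein with C2 domains, read 3346 and 4668 in the KO arrays, against 91.0 in Control 1 and 5656 in Control 2. Control 2 was thus the highest array for Doc2g but the lowest of the 3 for Rnf207, Cacna1c and Cacnb2. On the wider list of calcium handling and excitation, 19 other genes were bright in the 3 arrays, of which 6 were over 2-fold dimmer in Control 1 (31.6%), 5 over 2-fold brighter (26.3%) and 8 within 2-fold.

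Among 5 genes of the cytoskeleton and its motors, Nebl, the cardiac Z-disc protein nebulette, read 9643 and 9488 in the KO arrays, against 51.2 in Control 1 and 9917 in Control 2. Its large relative in skeletal muscle, Neb (nebulin), read 21.8 and 77.7 in the KO arrays, against 35496 in Control 1 and 81.7 in Control 2. The 2 relatives thus had opposite patterns over the 4 arrays. Mtus2, a microtubule-associated protein, read 4759 and 4209 in the KO arrays, against 13.1 in Control 1 and 2408 in Control 2. Shroom3, an actin-binding protein of epithelial cell shape, read 1347 and 1082 in the KO arrays, against 76.3 in Control 1 and 941 in Control 2. Baiap2l1, which bundles actin at membranes, read 686 and 1260 in the KO arrays, against 57.6 in Control 1 and 711 in Control 2, and its KO arrays differed from each other more than those of any other of the 40 genes. Myo5b, a myosin that moves vesicles, read 776 and 696 in the KO arrays, against 96.3 in Control 1 and 829 in Control 2. Sarcomere, Z-disc and cytoskeleton genes as a wider list were mixed, with 47 others bright in the 3 arrays. Of these, 12 were over 2-fold dimmer in Control 1 (25.5%), 8 over 2-fold brighter (17%) and 27 within 2-fold. Their median log2 difference was -0.08. The 12 include Mylk3 (59.6 in Control 1) and Tnni3k (4.70 in Control 1), which met the limits and were left out by name.

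Secreted factors and signaling proteins numbered 6. Corin, the membrane protease that activates atrial natriuretic peptide, read 7966 and 8865 in the KO arrays, against 2.50 in Control 1 and 5661 in Control 2. Ptgds, which makes prostaglandin D2, read 17097 and 15872 in the KO arrays, against 53.2 in Control 1 and 28806 in Control 2. Strip2, a component of kinase and phosphatase complexes, read 2893 and 2814 in the KO arrays, against 76.9 in Control 1 and 2054 in Control 2. Control 2 was therefore the highest array for Ptgds and the lowest of the 3 bright ones for Corin and Strip2. Pde1c, a phosphodiesterase activated by calcium and calmodulin, read 1164 and 1450 in the KO arrays, against 42.7 in Control 1 and 1374 in Control 2. Rasl10b, a Ras-like GTPase, read 833 and 570 in the KO arrays, against 19.2 in Control 1 and 957 in Control 2. Rab20, a GTPase of vesicle traffic, read 650 and 718 in the KO arrays, against 95.5 in Control 1 and 638 in Control 2, the narrowest gap among the 40. On the wider lists, 7 of 12 other bright genes of receptors, ligands and signaling were over 2-fold dimmer in Control 1 (58.3%), as were 11 of 17 endothelial, endocardial and epicardial genes (64.7%) and 9 of 21 extracellular matrix and secreted genes (42.9%).

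Regulators of transcription and RNA also numbered 6. Myocd, the coactivator of serum response factor in heart and smooth muscle, read 1755 and 1700 in the KO arrays, against 9.66 in Control 1 and 1406 in Control 2. Zfpm2, a cofactor of GATA factors in the heart, read 1149 and 954 in the KO arrays, against 91.9 in Control 1 and 1058 in Control 2. Both varied little over the 3 bright arrays. Irx5, a homeobox factor of the ventricular wall, read 632 and 1053 in the KO arrays, against 27.1 in Control 1 and 3601 in Control 2, the widest spread over the 3 arrays, at 5.69-fold. Meis2, another homeobox factor, read 996 and 946 in the KO arrays, against 99.5 in Control 1 and 1238 in Control 2. Nr0b2, a nuclear receptor that acts as a corepressor, read 618 and 921 in the KO arrays, against 5.34 in Control 1 and 1357 in Control 2. Irx5, Meis2 and Nr0b2 were highest in Control 2. Mov10l1, an RNA helicase needed for piRNAs in the testis, read 2567 and 3409 in the KO arrays, against 42.3 in Control 1 and 1782 in Control 2. On the wider list of transcription and RNA regulators, 19 other genes were bright in the 3 arrays, of which 5 were over 2-fold dimmer in Control 1 (26.3%), 3 over 2-fold brighter (15.8%) and 11 within 2-fold.

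Metabolic genes numbered 3 of 40. Cidea, a lipid droplet protein of brown fat that is also found in heart, read 2412 and 2343 in the KO arrays, against 76.9 in Control 1 and 2823 in Control 2. Ucp1, the defining gene of brown fat, read at most 7.92 on any array, and Adipoq, made by adipocytes, read 3.93 and 164 in the KO arrays, against 911 in Control 1 and 97.5 in Control 2. Cidea differed from Adipoq in its pattern over the 4 arrays, and Ucp1 was too dim on all of them to compare. A share of fat cells in these values was not tested. Ppp1r3b, which directs protein phosphatase to glycogen, read 1130 and 827 in the KO arrays, against 23.9 in Control 1 and 1120 in Control 2. Gchfr, the feedback regulator of tetrahydrobiopterin synthesis, read 588 and 599 in the KO arrays, against 51.8 in Control 1 and 1129 in Control 2. On the wider list of metabolism and mitochondria, 46 other genes were bright in the 3 arrays, of which 12 were over 2-fold dimmer in Control 1 (26.1%), 4 over 2-fold brighter (8.7%) and 30 within 2-fold (65.2%).

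A further 3 genes act in innate immunity or inhibit proteases. Pycard, the adaptor ASC of inflammasomes, read 739 and 893 in the KO arrays, against 51.7 in Control 1 and 891 in Control 2. Nlrp10, an NLR family protein, read 709 and 859 in the KO arrays, against 16.1 in Control 1 and 643 in Control 2. Serpinb6b, a serine protease inhibitor, read 3505 and 5271 in the KO arrays, against 94.2 in Control 1 and 3516 in Control 2. Control 2 lay within the range of the KO arrays for Pycard and Serpinb6b and below it for Nlrp10. Markers of macrophages, in which Pycard is well expressed, summed to 4956 and 4755 in the KO arrays, against 2678 in Control 1 and 4829 in Control 2, and 0 of 4 were over 2-fold dimmer in Control 1 than in each other array.

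The remaining 5 genes were grouped under no role. Tmem144, a membrane protein, read 2510 and 2369 in the KO arrays, against 72.6 in Control 1 and 3164 in Control 2. Cabcoco1 read 674 and 698 in the KO arrays, against 2.75 in Control 1 and 529 in Control 2. In both genes the KO arrays lay close to each other, with Control 2 above them for Tmem144 and below them for Cabcoco1. BC034090 read 669 and 613 in the KO arrays, against 55.5 in Control 1 and 888 in Control 2. Spata33 read 796 and 845 in the KO arrays, against 71.3 in Control 1 and 534 in Control 2. Plscr2, of the phospholipid scramblase family, read 783 and 897 in the KO arrays, against 67.8 in Control 1 and 734 in Control 2.

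Each gene was represented by 1 probe set, so the other probe sets of these genes were read too. They come from the same RNA, and their values are a description. The 23 genes with more than 1 probe set had 46 others, and 42 of the 46 were dimmer in Control 1 than in each other array. Of these 46, 12 read at least 500 in the 3 other arrays, and all 12, from 10 genes, read at most 100 in Control 1. The second probe set of Dsp read 20232 and 26181 in the KO arrays, against 3.84 in Control 1 and 22320 in Control 2. That of Ptgds read 9268 and 8326 in the KO arrays, against 9.30 in Control 1 and 19445 in Control 2. For Ptgds Control 2 was again the highest array, and for Dsp it lay between the KO arrays. A further 8 read under 100 on all 4 arrays and carried little signal to compare. The 26 between were dimmer in Control 1 than in each other array in 26 cases, and 0 of the 46 reached 500 in Control 1.

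**Figure D4:**
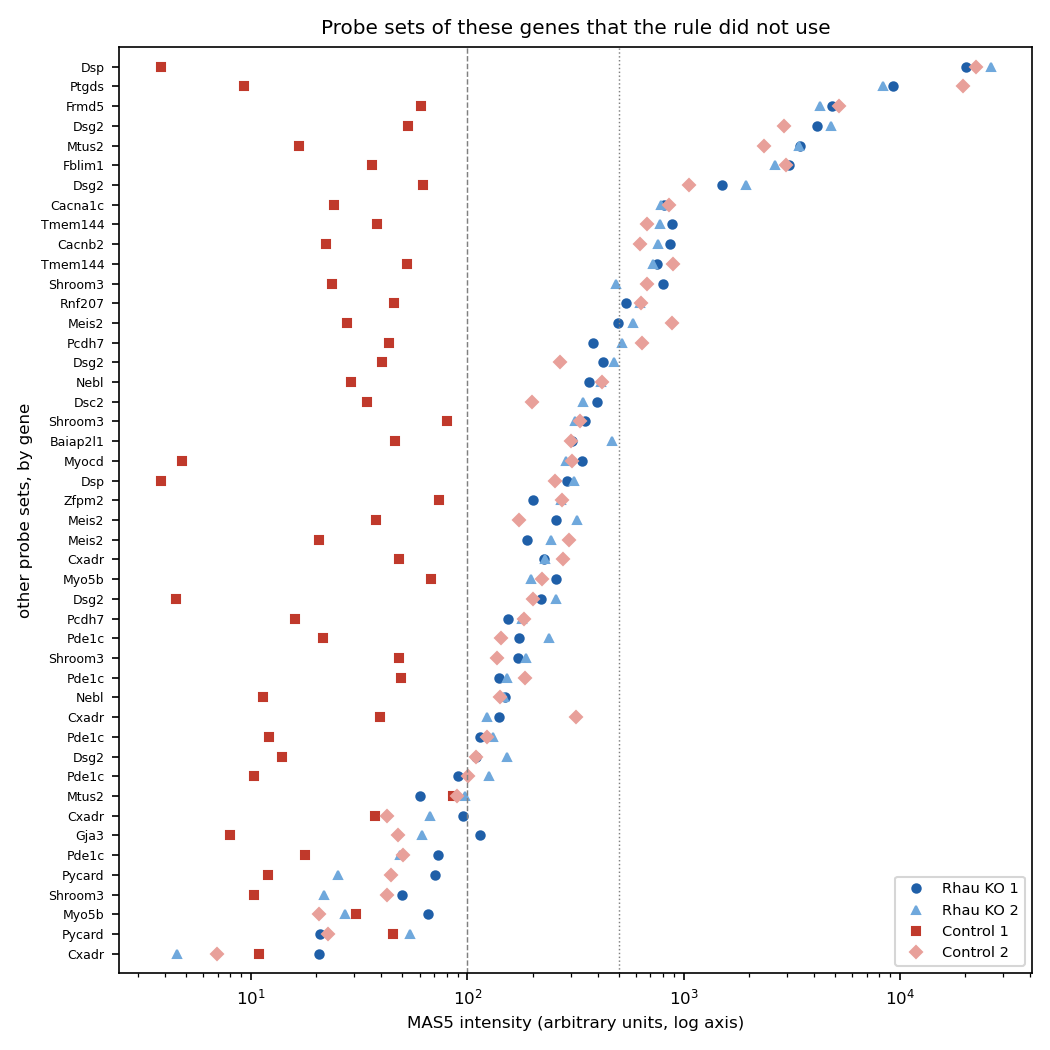
Intensity of the 46 probe sets of these genes that were not used to choose them, 1 row each, labelled by gene, on a log axis in arbitrary units. Control 1 (red squares) is left of the dashed line at 100 in every row, and rows are ordered by the median of Rhau KO 1, Rhau KO 2 and Control 2.

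The genes came from 17 chromosomes, with 6 on chromosome 2, 5 on chromosome 5 and 4 each on chromosomes 8 and 18. Since they were dim together, the 250 bases before their transcription starts were searched on both strands for motifs bound by heart regulators. RefSeq starts on build GRCm38.p6 matched 27 of the 40 genes. The motifs were GATAA (GATA factors), TNAAGTG (NKX2 factors), CATTCC (TEAD factors), TCAAGGTCA (ERR receptors), and the MEF2 and CArG boxes by their usual consensus, and none of the spelled motifs contains another. GATAA stood before 4 of 27 genes, or 14.8%, and before 25.5% of all 27025 genes. TNAAGTG stood before 3 of 27, or 11.1%, and before 11.4% of all genes. CATTCC stood before 5 of 27, or 18.5%, and before 14.4% of all genes. The MEF2 box was found before 1 gene (3.70% and 3.42% of all genes), the CArG box before 1 (3.70% and 1.62%) and TCAAGGTCA before 0 (0.422% of all genes). A gene counted when any of its listed starts had a match, and the 27 genes had 42 starts. With matches before 0 to 5 of 27 genes, no motif is read as more or less common before these genes than before all genes. The shares were not tested against each other. The following upstream sequences are printed because they hold the MEF2 match (Gja3, chr14:57058031-57058280, minus strand) or 2 TNAAGTG matches each (Cacnb2, chr2:14823842-14824091, and Nr0b2, chr4:133553126-133553375, plus strand), and Dsp (chr13:38151044-38151293, plus strand), a desmosomal gene, is shown because it had no match to any of the motifs. Capitals mark the matches, on either strand.
Gja3: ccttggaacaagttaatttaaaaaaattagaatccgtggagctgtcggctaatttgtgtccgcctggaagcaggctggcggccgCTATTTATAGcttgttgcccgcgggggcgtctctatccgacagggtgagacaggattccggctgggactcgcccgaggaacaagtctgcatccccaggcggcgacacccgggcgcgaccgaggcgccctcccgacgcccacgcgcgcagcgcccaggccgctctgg
Cacnb2: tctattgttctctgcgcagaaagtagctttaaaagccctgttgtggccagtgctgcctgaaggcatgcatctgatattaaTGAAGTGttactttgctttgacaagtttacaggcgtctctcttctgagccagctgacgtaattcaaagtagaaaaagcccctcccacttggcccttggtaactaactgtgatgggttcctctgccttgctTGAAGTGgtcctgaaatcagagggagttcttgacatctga
Nr0b2: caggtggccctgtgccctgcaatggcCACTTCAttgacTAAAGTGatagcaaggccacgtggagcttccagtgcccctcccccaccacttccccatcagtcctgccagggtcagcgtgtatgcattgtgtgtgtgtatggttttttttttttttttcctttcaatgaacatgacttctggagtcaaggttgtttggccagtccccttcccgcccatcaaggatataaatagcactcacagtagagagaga
Dsp: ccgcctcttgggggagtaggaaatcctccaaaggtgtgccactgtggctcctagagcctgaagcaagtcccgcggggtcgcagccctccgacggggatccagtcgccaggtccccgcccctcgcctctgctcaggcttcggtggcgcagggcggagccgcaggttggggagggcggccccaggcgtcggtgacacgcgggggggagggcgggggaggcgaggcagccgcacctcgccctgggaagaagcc
A match to these letters is a description of the sequence, and no match says only that the letters are not in the window.

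The study compared samples labelled Rhau KO with samples labelled Control. With all 4 arrays the comparison holds the values that chose the genes, and it is given without support drawn from it. All 40 genes had a higher mean in the KO arrays, and their median log2 difference was 2.70, against 0.09 over all genes. With limma, 0 of the 40 passed an adjusted p of 0.05, and the lowest adjusted p was 0.873. Over all genes 0 of 18193 passed (0%), and 785 passed an unadjusted p of 0.05 (4.31%), of which 0 were among the 40. The methods' t-test on the same values also called 0 genes after Benjamini-Hochberg adjustment and 941 before it, 0 of them among the 40. The low value in Control 1 entered both the difference and the spread of the Control group.

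Without Control 1 the 40 genes showed no common direction. The median log2 difference, Rhau KO minus Control 2, was 0.04 over the 40 genes and 0.03 over all genes, with 20 genes above 0 and 20 below. Control 2 was above both KO arrays for 16 genes, below both for 18 and between them for 6. Only 2 genes, Irx5 and Dsc2, were over 2-fold apart. In this comparison 1 Control array stands against 2 KO arrays and is assumed to vary like them. On simulated arrays with a smooth spread this fit called more genes made without a change than its threshold states. On arrays simulated with each gene's own spread, limma did not call the genes made with a change. Both spreads were estimated with Control 1 included, the array that this fit leaves out. The simulations therefore cannot give the rate of false or missed calls among the arrays fitted here. The adjusted p-values may call too many or too few genes, and a lack of calls says little.

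By limma, 2 of the 40 genes passed an adjusted p of 0.05, where 0.819% of all genes passed, 31 higher and 118 lower in the KO arrays. Ptgds was lower in the KO arrays, at 16484 ± 866 (SD, n = 2) against 28806 in Control 2, a log2 difference of -0.81 (SE 0.09, limma adjusted p = 0.0350). Dsc2 was higher, at 2296 ± 182 (SD, n = 2) against 1107 in Control 2, a log2 difference of 1.05 (SE 0.13, limma adjusted p = 0.0409). Both calls were lost with eBayes without a trend, under which 0 of 18193 genes passed, with a pseudocount of 32 and with probe sets of a gene averaged, and over these and the other settings the adjusted p ran from 0.0308 to 0.539 for Ptgds and from 0.0409 to 0.515 for Dsc2. Shares over all genes are not a like background for the 40, which were chosen to read at least 500 in these 3 arrays. Only 5912 of the 18193 genes did so.

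Among genes that missed the adjusted threshold, Irx5 had the widest difference, at 843 ± 297 (SD, n = 2) in the KO arrays against 3601 in Control 2, a log2 difference of -2.14 (SE 0.30, limma adjusted p = 0.0529). Mtus2 read 4484 ± 389 (SD, n = 2) in the KO arrays and 2408 in Control 2, a log2 difference of 0.89 (SE 0.12, limma adjusted p = 0.0506). Gchfr read 593 ± 7.50 (SD, n = 2) in the KO arrays and 1129 in Control 2, a log2 difference of -0.93 (SE 0.16, limma adjusted p = 0.0864). These 3 passed when each array was centred on its median. With the probe sets of a gene averaged, the difference of Mtus2 was 0.41, and its adjusted p ran from 0.0466 to 0.537 over the settings, against 0.0255 to 0.531 for Irx5. The other large differences on the higher side were 0.75 for Gja3, 0.73 for Mov10l1, 0.67 for Pcdh7, 0.62 for Spata33, 0.60 for Cacnb2 and 0.57 for Rnf207. On the lower side they were -0.85 for Nr0b2, -0.78 for Cxadr, -0.52 for Doc2g, -0.47 for Rasl10b and -0.47 for BC034090. With probe sets averaged, that of Cxadr was -0.19, that of Rnf207 0.22 and that of Pcdh7 -0.0049. At the near end, Dsp, Nebl and Zfpm2 differed by -0.07, -0.05 and -0.01, less than the difference between the 2 KO arrays for Dsp and Zfpm2.

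**Figure D5:**
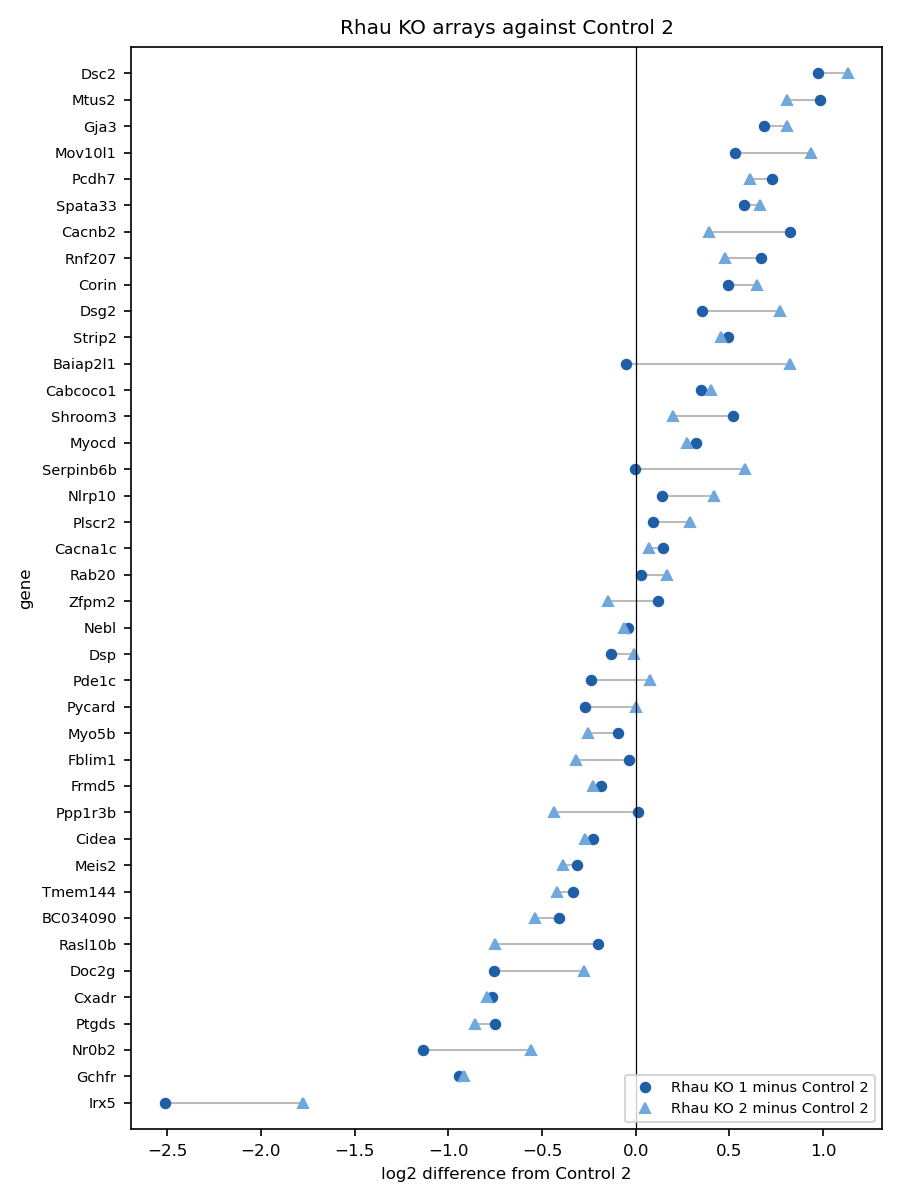
Log2 difference from Control 2 of Rhau KO 1 (dark circles) and Rhau KO 2 (light triangles) for the 40 genes, ordered by their mean, with a line joining the 2 arrays of each gene. The genes spread on both sides of 0, from about 1 log2 unit above for Dsc2 to over 2 below for Irx5, and the ends of several lines lie far apart.

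The wider lists were read by their median log2 differences, Rhau KO minus Control 2, because 1 Control array has no measured spread. Over all genes this median was 0.03, and over 26 intercalated disc and adhesion genes it was -0.06. The median was 0.07 over 48 genes of receptors, ligands and signaling and 0.16 over 66 genes of metabolism and mitochondria. It was -0.00096 over 50 sarcomere, Z-disc and cytoskeleton genes, 0.16 over 37 genes of calcium handling and 0.03 over 54 of transcription. At an unadjusted p under 0.05, limma had 1366 genes higher (7.51%) and 1059 lower (5.82%) in the KO arrays over all genes. The lists of metabolism (18 higher, 1 lower), calcium handling (13 and 2), receptors, ligands and signaling (11 and 5) and endothelial, endocardial and epicardial genes (6 and 3 of 38) had more higher than lower. Whether any list differed from all genes was not tested, and the lists were not matched to all genes in brightness.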

How the data were processed

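Intensities of 4 arrays labelled as heart were analysed from the table of linear intensities that the authors deposited, made with the MAS5 algorithm per the labels. It holds 45101 probe sets. The 64 controls were left out, and 34958 probe sets with 1 gene symbol gave 18193 genes, each by its brightest probe set (mean log2 over the arrays). Groups came from the sample labels. Differences (Rhau KO minus Control) of log2 intensities were fitted by limma 3.58.1 (R 4.3.3; lmFit, then eBayes with a variance trend), with Benjamini-Hochberg adjustment over all genes and two-sided p-values at a threshold of 0.05. The fit was run with all arrays and without Control replicate 1. Code was tested on simulated data. Alternatives were the limits of the selection, the scaling, a pseudocount of 32, the probe sets used, the variance trend, the t-test, the replicate block and leaving out arrays.

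The 40 genes, the gene lists and the tests were chosen with earlier results of these data known. By the rule for naming genes, members were to be sorted by role with the 4 of the highest mean in each role, the 8 highest and 8 lowest differences from Control 2, those called and those nearest the limits named. Role groups were redrawn after the values were seen, including for genes already on a list, and all 40 genes are given. Same-numbered arrays were not taken as pairs: the correlation of their deviations was 0.006. Tables and plots used Python 3.11.15, numpy 2.4.6, pandas 2.3.3 and matplotlib 3.10.9.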

Additional observations from a re-analysis of the deposited data

How the results depend on the processing

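The number of genes selected depended on the limits: 11 with at least 1000 and at most 50, and 415 with at least 250 and at most 200, against 40. Averaging the probe sets of a gene selected 38 genes, of which 29 were among the 40. Starting from all arrays, 1 array at a time was left out and the median log2 difference of the 40 genes was read. It was 5.39 without Control replicate 2. The only Control array in that fit is the one that chose the genes. The calls of that fit follow from the choice and are not read as a result. Dropping a KO array gave a median of 2.76 (replicate 1) or 2.70 (replicate 2). With Control replicate 1 left out the median was 0.04, with 20 of 40 genes below 0. The sign of these differences thus rests on Control replicate 1. The replicate block gave 0 genes called at the adjusted threshold, as without it. At an unadjusted limma p under 0.05 it gave 8 of the 40, where 694 of 18193 genes passed. Without the block 0 of the 40 passed, where 785 of 18193 did. Both comparisons hold the values that chose the genes, so neither count is read as a result about the 40. Without Control replicate 1, the 2 calls became 0 with eBayes without a trend, 0 with a pseudocount of 32, 0 with the mean of all probe sets, 5 with median centring and 1 of 86 probe sets tested singly, a setting chosen after seeing the data, where the call was the second probe set of Ptgds (log2 difference -1.15, adjusted p = 0.0317). They stayed at 2 with quantile normalization and with the brighter genes alone. With the mean of all probe sets the log2 difference turned to 0.073 for Dsp, 0.29 for Myo5b, -0.0049 for Pcdh7, 0.066 for Pde1c and 0.13 for Pycard, and with quantile normalization to 0.0048 for Zfpm2. None of these genes was called. The cause of these changes was not tested. Median centring placed the median of all genes at -0.03 in place of 0.09 with all arrays. With 1 Control array left, its own spread is not measured, and intensities under 100, the range of Control replicate 1 for these genes, are near those of most probe sets.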

Other observations

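Among 10092 probe sets with no gene symbol or several, 14 also read at least 500 in Rhau KO 1, Rhau KO 2 and Control 2 and at most 100 in Control 1, and 0 of the 14 carried several symbols. Counting a gene whenever any of its probe sets met the limits gave 53 genes in place of 40, all 40 included.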
